A study of Mus musculus with 10 samples.

Results

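Contractile genes of smooth muscle were followed through single-cell RNA sequencing of the embryonic mouse pancreas. The set was a fixed list of 9 symbols, Acta2, Tagln, Myl9, Myh11, Cnn1, Actg2, Des, Lmod1 and Myocd, and all 9 were found among the 27716 genes shared by the count matrices. The question was in which stromal cells they were read, in mural, mesothelial, other mesenchymal or endothelial cells, and in which order they appeared between E12.5 and E17.5. They were kept out of the clustering that defined those cells and out of the marker lists that named them. The limits for naming clusters were, however, set after the clusters were seen.

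Smooth muscle shortens when myosin pulls on actin filaments. The filaments are built from smooth muscle actins, the motor is a smooth muscle myosin switched on by phosphorylation of its light chain, and calponin, transgelin and leiomodin bind or nucleate actin. Serum response factor drives many of these genes through CArG boxes, and myocardin is its coactivator in smooth muscle. In the pancreas the genes are known from the walls of vessels, and some of them are also made by pericytes and by activated fibroblasts.

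Embryos were wild-type Swiss Webster in 7 libraries. In the other library they came from mice kept on C57BL/6J and carried Fev-Cre;ROSA26mTmG, in which Cre is driven by Fev and turns membrane tdTomato into membrane GFP, and live GFP+ and tdTomato+ cells were collected. The 8 libraries comprised E12.5 v1 and E12.5 v2, E14.5 v1 batch 1, E14.5 v1 batch 2, E14.5 v2 and E14.5 Fev-Cre, and E17.5 v1 and E17.5 v2, where v1 and v2 are the 10x kit versions and Fev-Cre used v2. Pancreata were pooled for each library, so the pool was the replicate, and E17.5 v2 was loaded in 2 wells that were summed. The Swiss Webster v2 pools had been depleted of CD140a+ cells, those with surface Pdgfra, to enrich epithelium. Kit and depletion therefore cannot be told apart among them. Digestion lasted 10 minutes for E12.5 tissue, 15 for E14.5 and 30 for E17.5, and time of digestion cannot be told apart from stage. Each Swiss Webster v2 pool was handled on its own day, so day cannot be told apart from stage among them. E12.5 v1 and E17.5 v1 were labelled batch 2, which the paper collected on another day than batch 1. Total UMIs (counted mRNA molecules) per matrix ran from 15671934 to 127151679, and the 16 pairs of samples prepared with the same kit shared 19 to 156 barcodes (0.494% to 1.79% of the smaller).

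Cells were clustered within each library and clusters were named from marker lists that held none of the 9 genes. Mural-like clusters, named from 12 markers of pericytes and vessel walls such as Notch3, Rgs5 and Kcnj8, held 24 to 237 cells per library. Of these markers 11 or 12 were read in each mural-like sum, 9 to 12 in other mesenchyme, 5 to 12 in mesothelial-like and 2 to 11 in endothelial-like sums. They named the clusters, so their presence cannot check the name. Together they reached 1222 to 6235 CPM (UMIs scaled to the same total in each sum), against 419 to 1424 in other mesenchyme, 179 to 391 in mesothelial-like and 36.1 to 228 in endothelial-like cells. The comparison classes were mesothelial-like cells (49 to 2834 per library), endothelial-like cells (24 to 244) and the other mesenchyme (76 to 3512). The shallowest mural-like cells, in E12.5 v1, numbered 35 with a median of 1869 UMIs, against 3050 to 8950 in the other libraries. Their cluster scored 0.750 on the markers, but none of the 12 was among its 10 leading genes. A neighbouring E12.5 v1 cluster of 404 cells scored 0.478 on these markers, just under the limit of 0.5, and was counted as other mesenchyme with Acta2 at 468 CPM. Mural-like values of E12.5 v1, and ratios within v1, rest on that limit, and with finer clusters the class held 113 cells there. Other libraries moved too. With at least 500 genes per cell the class went from 81 to 503 cells in E14.5 v1 batch 1 and from 91 to 172 in batch 2, and with finer clusters from 237 to 90 in E17.5 v2. UMIs were read from 3′ ends and were not divided by transcript length, so each gene is compared with itself only. A lower sum can come from fewer expressing cells or from less RNA per cell, and a sum alone cannot separate them.

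The promoters are shown for Acta2 and Myl9, because they were the 2 members, of 5 with a promoter to hand, whose windows held a CArG box, CC and GG around 6 bases of A or T, or one with a single mismatch among the 6 inner bases. The windows cover 250 bases before to 50 after the RefSeq start on GRCm38.p6, at chr19:34255324-34255623 on the minus strand and chr2:156775214-156775513 on the plus strand. The Acta2 gene as annotated reaches to 34255590, upstream of the RefSeq start used, so its distances below hold for that start only. Capitals mark the matches.
Acta2: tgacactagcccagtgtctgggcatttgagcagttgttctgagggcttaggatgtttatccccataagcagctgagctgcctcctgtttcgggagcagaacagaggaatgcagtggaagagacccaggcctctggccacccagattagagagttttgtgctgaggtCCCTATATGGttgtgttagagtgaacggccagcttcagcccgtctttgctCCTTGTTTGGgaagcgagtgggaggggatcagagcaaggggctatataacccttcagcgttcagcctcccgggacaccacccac
Myl9: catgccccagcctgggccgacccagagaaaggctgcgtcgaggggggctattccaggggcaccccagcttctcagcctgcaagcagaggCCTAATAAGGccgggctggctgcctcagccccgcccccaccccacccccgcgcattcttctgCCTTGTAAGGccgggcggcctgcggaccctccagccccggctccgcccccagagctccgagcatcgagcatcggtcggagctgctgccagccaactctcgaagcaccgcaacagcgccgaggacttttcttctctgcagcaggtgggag
Myl9 had 1 complete box, from 161 to 152 bases before the start, and 1 box with a single mismatch at 99 to 90. Acta2 had 2 single-mismatch boxes, at 84 to 75 and at 34 to 25, and no complete one. The windows of Cnn1, Des and Lmod1 held neither. With the mismatch allowed at any of the 10 positions, Lmod1 also had 2 matches, Cnn1 and Des still had none, and 21.1% of all promoters held at least 1. Over all 32851 promoters in the table, 1.63% held a complete box and 9.98% a complete box or one with an inner mismatch on either strand (the pattern reads the same on both). Promoters of Tagln, Myh11, Actg2 and Myocd were not analysed here.

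Acta2 encodes smooth muscle alpha-actin, at chromosome 19, 34241090 to 34255590, minus strand, GRCm38. In mural-like cells it was read at 901 CPM in E12.5 v1 and 1972 in E12.5 v2. The 4 libraries at E14.5 gave 1103, 1668, 928 and 1427 CPM (v1 batch 1, v1 batch 2, v2 and Fev-Cre). At E17.5 it was at 4928 CPM in v1 and 2254 in v2. Both E17.5 values therefore lay above all 6 earlier ones, but the 2 kits at E17.5 stood further apart than E12.5 v2 stood from E17.5 v2. After thinning every cell to 2000 UMIs, 72.9% of the 166 cells in E12.5 v2 carried it, compared with at most 1.39% of immune-like cells in any library (median depth 2339 to 8106 UMIs per cell, against 7526 in the 166). The unthinned share in those 166 cells was 91.6%.

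Outside mural-like cells Acta2 was lower in 7 of 8 libraries. Other mesenchyme gave 80.8 and 18.2 CPM in the E12.5 libraries, 89.9 to 240 in those of E14.5 and 319 in E17.5 v1, and then 6189 in E17.5 v2, the exception. Mesothelial-like cells line the organ surface, and their Acta2 went from 29.4 and 5.59 CPM at E12.5 through 19.2 to 62.5 at E14.5 to 275 and 167 at E17.5 (v1 and v2). Both E17.5 values were above all 6 earlier ones, and the ratio of E17.5 to E12.5 was 9.34 within v1. The 5.59 CPM of E12.5 v2 lay within the range of immune-like cells, 0 to 13.9 CPM over the libraries, so no ratio is given for v2. No test of stage was fitted in mesothelial-like cells. Endothelial-like cells had 0 UMIs of Acta2 in 5 of 8 libraries and at most 19.1 CPM in the other 3.

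Actg2 encodes smooth muscle gamma-actin, the actin of visceral muscle, at chromosome 6, 83512905 to 83536265, minus strand. Mural-like cells held it at 183 and 309 CPM at E12.5, at 186, 174, 73.6 and 107 at E14.5, and at 719 and 168 at E17.5 (kits and batches in the same order). The stages overlapped. It was read in 30.1% of thinned mural-like cells in E12.5 v2 but in 9.71% in E17.5 v2. Within v1, by contrast, it was read in 1 of 10 thinned cells at E12.5 and in 4 of 17 at E17.5, too few to compare. In other mesenchyme the gene stayed between 2.64 and 37.6 CPM in 7 libraries and reached 2299 in E17.5 v2. Mesothelial-like cells ranged from 0 to 11.2 CPM and endothelial-like cells held it in 1 of 8 libraries.

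**Figure D1:**
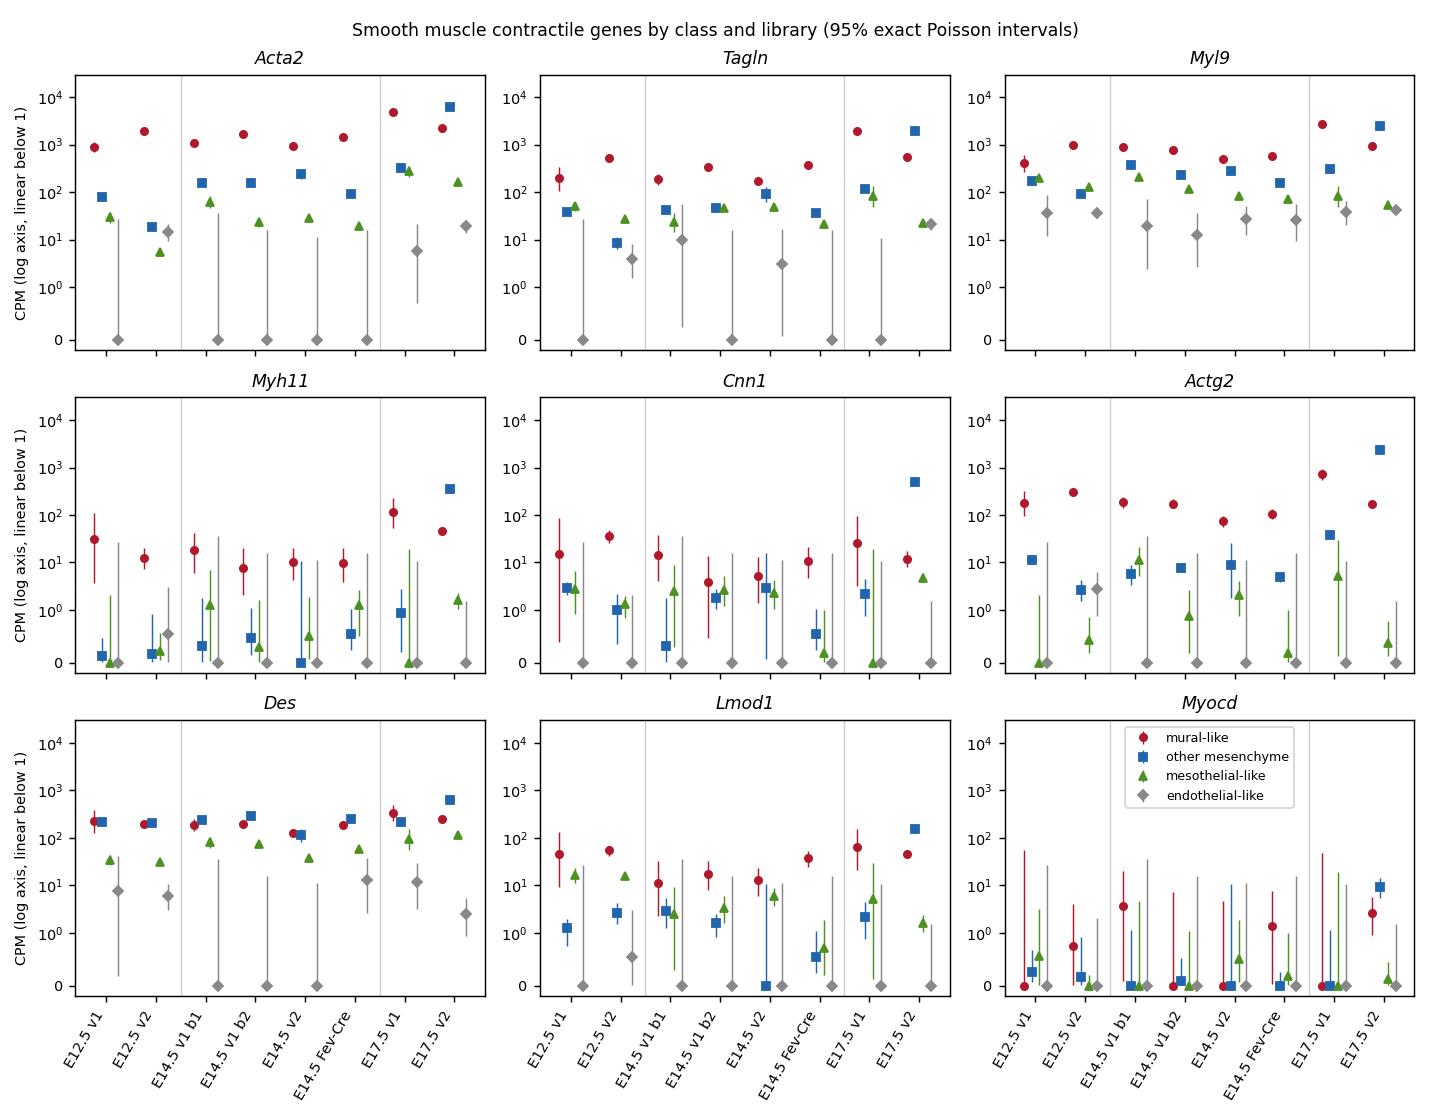
Each panel plots the CPM of a contractile gene (log axis, linear below 1) for 8 libraries ordered by stage, in mural-like (red circles), other mesenchymal (blue squares), mesothelial-like (green triangles) and endothelial-like cells (grey diamonds), with 95% exact Poisson intervals that cover counting error only. Mural-like cells were highest in 7 of 8 libraries for every gene except Des and Myocd, and the blue square of E17.5 v2 stood above them in all 9 panels.

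Of the motor genes, Myl9, the regulatory light chain (chromosome 2, 156775420 to 156781658), was at 412 and 996 CPM in mural-like cells at E12.5, between 496 and 895 at E14.5, and at 2719 and 958 at E17.5. Its E17.5 v2 value lay below E12.5 v2. It was the only member with UMIs in all 8 endothelial-like sums. Other mesenchyme gave 89.2 to 366 CPM in 7 libraries, mesothelial-like cells 54.1 to 210, and endothelial-like cells 12.7 to 42.5, beside 0 to 31.8 in immune-like cells. In mesothelial-like cells the E17.5 to E12.5 ratio was 0.434 in v1 and 0.427 in v2, which was not tested.

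Myh11, the smooth muscle myosin heavy chain (chromosome 16, 14194535 to 14291372), is a marker of mature smooth muscle. Its mural-like sums were 30.6 CPM (2 UMIs) and 12.7 (17 UMIs) at E12.5, and 18.3, 7.73, 10.1 and 9.57 at E14.5 from 4 to 8 UMIs each. At E17.5 they were 118 (9 UMIs) and 47.1 (109 UMIs). Both E17.5 values were above every earlier one. Outside mural-like cells Myh11 was at most 1.59 CPM in mesothelial-like cells and at most 0.940 in other mesenchyme, except for 353 in E17.5 v2.

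Tagln (transgelin, chromosome 9, 45929619 to 45936058) and Cnn1 (calponin, chromosome 9, 22099216 to 22109630) bind actin filaments. Mural-like Tagln was 199 and 536 CPM (E12.5), then 186, 334, 175 and 367 (E14.5), and 1895 and 537 at E17.5. The E17.5 to E12.5 ratio was 1.00 within v2 and 9.54 within v1. Cnn1 was at 15.3 CPM (1 UMI) and 35.7 (48 UMIs) at E12.5, from 3.87 to 14.6 at E14.5, and at 26.1 (2 UMIs) and 12.1 (28 UMIs) at E17.5. In the libraries with most UMIs the E17.5 v2 level was 0.339 times that of E12.5 v2.

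Lmod1 encodes leiomodin, which nucleates actin filaments (chromosome 1, 135324807 to 135368065). Mural-like cells gave 45.8 (3 UMIs) and 54.3 CPM (73 UMIs) at E12.5, then 10.96, 17.4, 12.7 and 36.9 at E14.5. At E17.5 they gave 65.4 (5 UMIs) and 45.4 (105 UMIs). All 4 E14.5 values lay below the 4 others, but those of E12.5 v1 and E14.5 v1 batch 1 were at the limit of 3 counts. The order therefore rests on few counts in v1. Mesothelial-like cells at E12.5 also held Lmod1, at 16.4 and 15.6 CPM, and less in all 6 later libraries, at 0.713 to 5.84. Within v2 the E17.5 to E12.5 ratio was 0.102, from 26 and 284 UMIs, and was not tested.

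Des encodes desmin, the intermediate filament of muscle (chromosome 1, 75360329 to 75368579). It did not follow the other members. Mural-like cells had 229 and 199 CPM in the E12.5 pair, 186, 197, 129 and 192 in those of E14.5, and 340 and 250 at E17.5. Other mesenchyme had 215 and 203 CPM in the E12.5 libraries, 113 to 290 in those of E14.5, and 218 and 638 at E17.5, and mural-like cells were above it in only 3 of 8 libraries. In mesothelial-like cells it went from 34.6 and 31.8 CPM at E12.5 to 95.2 and 117 at E17.5.

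Myocd encodes myocardin (chromosome 11, 65176561 to 65269989) and was at the edge of detection. Only 9 UMIs fell in mural-like cells, 6 of them in E17.5 v2 and 1 each in E12.5 v2, E14.5 v1 batch 1 and E14.5 Fev-Cre. The 95% interval in E17.5 v2, 0.952 to 5.64 CPM, overlapped that in E12.5 v2, 0.0188 to 4.15. Endothelial-like cells had 0 UMIs in every library, and other mesenchyme had 25, of which 19 were in E17.5 v2. A change with stage was not detectable at this depth.

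As for the order of appearance, 8 of the 9 genes, all but Myocd, were above 3 UMIs in mural-like cells of E12.5 v2, where the 684 immune-like cells held 0 UMIs of Myh11, Cnn1 and Lmod1. In E12.5 v1 Myh11, Cnn1 and Lmod1 were at 3 UMIs or fewer, which was not read as expression. Since E12.5 was the earliest stage, no order among the 8 could be read. In mural-like cells Myocd passed 3 UMIs only in a library of E17.5, but its interval did not separate the stages, and other mesenchyme of E12.5 v1 already held 4 UMIs.

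Members were often read in the same cells. Among mural-like cells thinned to 2000 UMIs and pooled per stage, the 51 with Actg2 at E12.5 also held Acta2 in 98.0% and Myl9 in 98.0% of cases. Of these 51 cells 50 came from E12.5 v2, as did 121 of the 125 Acta2 cells, so the E12.5 shares mostly describe that library. At E14.5 the shares were 87.8% and 90.2% of 41 cells, and at E17.5 100% and 96.3% of 27. The reverse did not hold, as Acta2 cells also held Actg2 in 40.0%, 15.9% and 16.3% of cases at the successive stages. Cells with Myh11 held Acta2 in 100% of 6, 87.5% of 8 and 88.9% of 18 cells at the 3 stages. Des stood apart again, since 61.5%, 54.3% and 66.7% of Des cells also held Acta2. Over all thinned mural-like cells Acta2 was read in 40.0% to 72.9%, 51.3% to 74.0% and 64.1% to 82.35% per library at these stages. The Des shares lay within those ranges. A share of this kind rises with the level of the second gene. At least 5 members were read in 22 of the 166 thinned cells of E12.5 v2, in 19 of 237 of E17.5 v2, and in 0 of 10 and 3 of 17 in v1 at the same stages. At E14.5 they were read in 5 of 78, 7 of 89, 3 of 133 and 4 of 73 cells (libraries in the order above).

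To ask whether mural-like cells carried more of each gene than other classes of the same suspension, UMI sums were compared with edgeR's quasi-likelihood test with library as a block and Benjamini-Hochberg adjustment over all genes. Calls needed an adjusted p under 0.05 together with a 2-fold difference or more. Against other mesenchyme 5 of the 7 members tested were called higher and none lower, beside 2.46% higher and 3.48% lower of all 9196 genes tested. Acta2 differed by a log2 fold change of 3.17 ± 0.61 (SE, 8 libraries, adjusted p = 0.00244), which is 8.97-fold. Actg2 was 3.95 ± 0.87 higher (adjusted p = 0.00626), Lmod1 2.99 ± 0.89 (0.0361), Tagln 2.58 ± 0.63 (0.0120) and Myl9 1.55 ± 0.40 (0.0164), all edgeR log2 values with adjusted p in parentheses. Myh11 at 2.18 ± 1.39 (edgeR adjusted p = 0.356) was not called, although DESeq2 gave 4.98 (adjusted p = 5.51e-06). Des differed by −0.33 ± 0.17 (edgeR adjusted p = 0.246). Cnn1 and Myocd did not pass the filter on low counts. Members rarely read in other mesenchyme, such as Lmod1 and Myh11 (medians of 1.89 and 0.389 CPM there), entered through their mural counts, so the number called among those tested supports nothing by itself. The call for Lmod1 was lost in 10 of 18 alternatives, that for Myl9 in 3 and that for Actg2 in 1, and without E14.5 v1 batch 2 or without E17.5 v1 only 3 members were called.

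Against mesothelial-like cells all 6 members tested were called higher, where 5.81% of 8154 genes were higher and 9.36% lower. Actg2 differed by 7.66 ± 0.48 log2 (edgeR adjusted p = 8.36e-09) and Acta2 by 5.26 ± 0.47 (3.59e-07). Tagln, Myl9 and Lmod1 were between 2.85 and 3.44 higher, and Des, which other mesenchyme shared, was 1.71 ± 0.17 higher (edgeR adjusted p = 1.00e-06). Against endothelial-like cells 5.91% of 4504 genes were called higher and 9.17% lower. Myl9, which had 204 UMIs in endothelial-like cells over the 8 libraries, was 4.76 ± 0.20 higher. The other 4 members tested were also called higher, but Acta2, Tagln, Des and Actg2 had only 73, 60, 25 and 5 endothelial UMIs in all, and their fitted folds depend on the prior count and are no bounds. Against endothelial-like cells members passed the filter through their mural counts, so they could hardly have come out otherwise and their number supports nothing. The same held for Actg2 and Lmod1 against mesothelial-like cells (medians of 0.666 and 4.28 CPM there). Myl9, Des and Tagln were read there at 54.1, 31.8 and 21.6 CPM or more in every library. Their direction was therefore not fixed by the filter. Myh11, Cnn1 and Myocd did not pass it in either comparison. The class comparisons share the same mural-like sums.

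**Figure D2:**
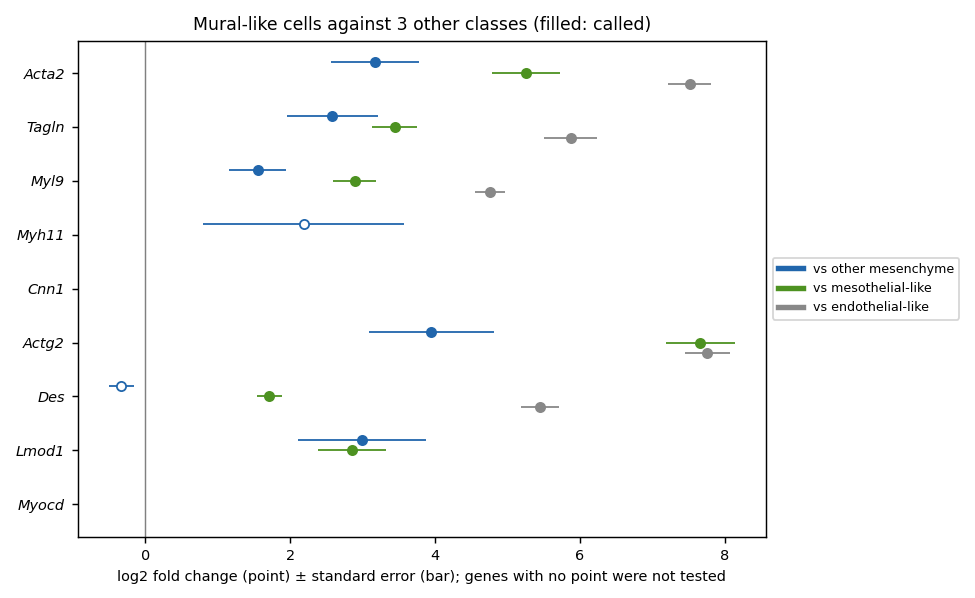
Log2 fold changes of mural-like cells against other mesenchyme (blue), mesothelial-like (green) and endothelial-like cells (grey) are plotted as points with standard errors as bars, filled where called. Des is the gene left of 0 against other mesenchyme (−0.33) and right of it against the other classes (1.71 and 5.45).

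Other genes of the contractile apparatus differed from other mesenchyme in both directions. Of 33 tested from a list of 41 contractile and cytoskeletal genes, 3 were higher and 3 lower, with a median of 0.35. Itga1, a collagen-binding integrin subunit, was 3.39 ± 0.49 log2 higher (edgeR adjusted p = 0.000287) and Tagln2, a transgelin of non-muscle cells, 1.30 ± 0.28 higher (0.00509). Palld (palladin, an actin-bundling protein), Pdlim3 and Csrp2 (LIM proteins of the actin cytoskeleton) were lower, at log2 fold changes of −2.09, −2.05 and −1.45. Against endothelial-like cells 8 of 26 were higher and 2 lower, led by the tropomyosin Tpm2 at 5.71 ± 0.23, and against mesothelial-like cells 11 of 27 were higher and 4 lower.

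Change with stage was tested in mural-like cells over all 8 libraries with kit as a covariate. The kit term placed Fev-Cre with the CD140a-depleted Swiss Webster v2 pools, and batch and day had no term. From E12.5 to E14.5 none of the 8 members tested was called by edgeR, and 3 of them (Cnn1, Actg2 and Lmod1) had an unadjusted p below 0.05. Over all 7575 genes 0.158% were called. All 8 estimates were below 0, from −0.10 for Acta2 to −1.90 ± 0.65 for Cnn1 (edgeR adjusted p = 0.397), with a median of −0.54 against 0.06 over all genes. The direction rested on E12.5 v2. Without that library 5 of the 8 turned positive, Myl9 at 1.54, Acta2 at 1.15, Tagln at 1.12, Actg2 at 0.53 and Des at 0.14.

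From E14.5 to E17.5 all 8 estimates were above 0 and 1 was called higher, where 0.488% of genes were. Myh11 rose by 2.68 ± 0.47 log2 (6.42-fold, edgeR adjusted p = 0.0102), and every E17.5 library was above every E14.5 library. That call was lost in 4 of 17 alternatives, without E17.5 v1 (2.34), without E17.5 v2 (3.17), without the kit term (2.67) and with the contractile genes among the clustering genes (2.23). Tagln was next at 2.15 ± 0.50 (edgeR adjusted p = 0.0554) and was called in 8 of 17 alternatives, and 7 of the 8 had an unadjusted p below 0.05, all but Cnn1. The median was 1.44, against −0.06 over all genes. Without E17.5 v1 no member was called. Without E12.5 v1 or E12.5 v2, which enter through the shared spread and kit term, 4 and 3 were.

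Over the whole interval from E12.5 to E17.5 none of the 8 was called by edgeR, 4 had an unadjusted p below 0.05 (Acta2, Tagln, Myl9 and Myh11), and 1.94% of genes were called. Myh11 came closest, at 2.09 ± 0.57 (edgeR adjusted p = 0.0707). Acta2 was 1.40 ± 0.57 (0.332), Tagln 1.65 ± 0.63 (0.275), and Cnn1 −1.08 ± 0.72 (0.683). The size differed between kits. Acta2 at E17.5 was 5.47 times its E12.5 level within v1 and 1.14 times within v2, and Myl9 6.59 and 0.962 times. Leaving out the shallow E12.5 v1 library lowered the Acta2 estimate to 0.52 and the Myl9 estimate to 0.27, whereas Myh11 kept 2.09 and Tagln was 0.72. Cnn1 turned to 0.57 without E12.5 v2 and to 0.13 without E17.5 v2. With finer clusters (Leiden resolution 2) 4 members were called, Acta2, Tagln, Myl9 and Myh11, the last at 3.49. Those calls thus depended on the cluster resolution. Over all genes 35 to 361 were called across the alternatives that kept every library, beside 147 in the fit above. The number at that resolution alone is not given here, so the 4 calls cannot be set beside a share of all genes. Without E12.5 v2 Myl9 was called and without E14.5 v2 Myh11.

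Among the other contractile genes, 3 were called over the same interval. Ppp1r14a, an inhibitor of myosin phosphatase, rose by 2.21 ± 0.53 (edgeR adjusted p = 0.0336), Mylk, the kinase of the light chain, by 2.07 ± 0.51 (0.0405), and Tagln2 by 2.01 ± 0.47 (0.0292), of 31 tested. From E14.5 to E17.5 Mylk (1.95 ± 0.40) and Mustn1 (4.29 ± 0.87), a small nuclear protein of muscle and skeleton, were called. Among 29 regulators tested, Prrx1, a homeobox factor of mesenchyme, rose by 1.88 ± 0.38 from E12.5 to E17.5 (edgeR adjusted p = 0.0113) and Barx1, a homeobox factor of stomach mesenchyme, fell by 2.30 on the log2 scale (adjusted p = 0.0184). The 13 dissociation and stress genes tested had a median of 1.47 from E12.5 to E14.5, −0.50 from E14.5 to E17.5 and 1.21 from E12.5 to E17.5. None of them was called by edgeR, and their part in the members' values was not tested. None of the 12 cell cycle genes was called in a mural-like stage comparison.

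**Figure D3:**
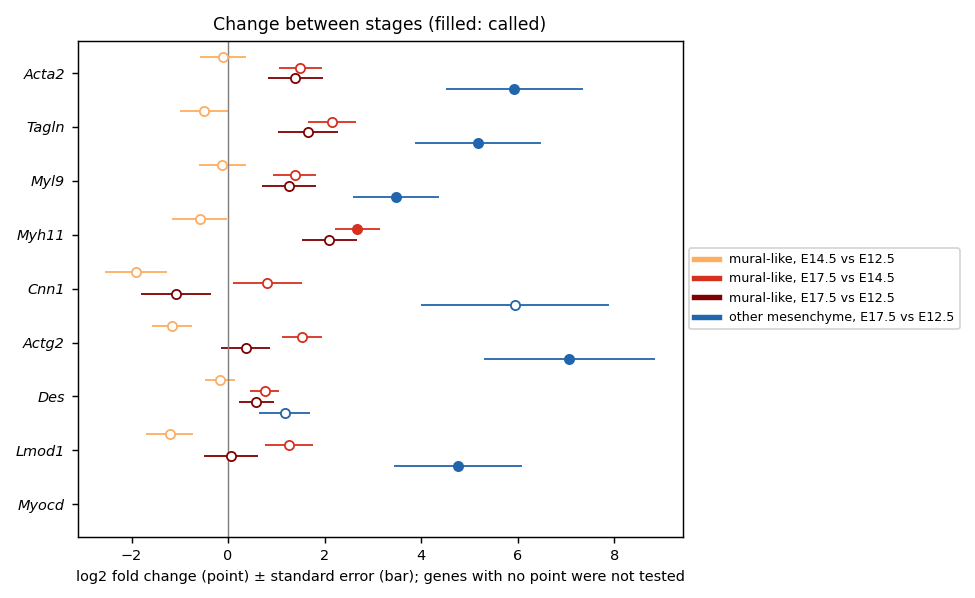
Log2 fold changes between stages (points) with standard errors (bars) are plotted for mural-like cells, E14.5 against E12.5 (orange), E17.5 against E14.5 (red) and E17.5 against E12.5 (dark red), and for other mesenchyme, E17.5 against E12.5 (blue), filled where called. The mural-like members lay below 0 from E12.5 to E14.5, which 5 of them did not without E12.5 v2, and above 0 from E14.5 to E17.5, where Myh11 is the filled red point at 2.68.

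In other mesenchyme the stage estimates were larger than in mural-like cells, and their size differed by kit. From E12.5 to E17.5, 5 of 7 members tested were called higher, where 9.57% of 12273 genes were higher and 4.24% lower. Actg2 was 7.07 ± 1.78 higher (edgeR adjusted p = 0.0274), Acta2 5.93 ± 1.42 (0.0223), Tagln 5.18 ± 1.30 (0.0274), Lmod1 4.77 ± 1.33 (0.0407) and Myl9 3.48 ± 0.90 (0.0299). Cnn1 at 5.95 ± 1.95 (edgeR adjusted p = 0.0709) and Des at 1.17 ± 0.53 (0.174) were not, although Cnn1 was called in 7 of 16 alternatives, among them DESeq2 (6.51, adjusted p = 0.00928), and Des in 2 of 18. Within v1 the ratios of E17.5 to E12.5 were 3.95 for Acta2, 3.10 for Tagln, 3.35 for Actg2, 1.73 for Myl9, 1.76 for Lmod1, 1.01 for Des and 0.759 for Cnn1 (44 and 7 UMIs), whereas within v2 they were 341, 229, 870, 27.8, 57.4, 3.14 and 499.6. Without E17.5 v2 the estimates for Acta2, Tagln and Actg2 were 2.69, 2.36 and 2.26 and still called, while Lmod1 was 0.11 and Cnn1 −0.093. Without E12.5 v2 no member was called by edgeR, and leaving out E14.5 v1 batch 2, E14.5 v2, E12.5 v1 or Fev-Cre left 1, 2, 3 and 3 called, while 9 were called without E17.5 v1. In the same comparison 7 of 14 stress genes were higher, among them Atf3 at 4.09 ± 0.64, and 4 of 12 cell cycle genes lower, and their part was not tested.

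In the fit over both kits the stage change was smaller in mural-like cells than in other mesenchyme for 6 of the 8 members tested. Over all 11062 genes 1.58% were called in that direction. The differences in log2 change were −9.79 ± 0.84 for Cnn1, −6.87 ± 1.03 for Myh11, −5.79 ± 0.86 for Lmod1, −5.77 ± 1.05 for Actg2, −3.96 ± 0.93 for Acta2 and −3.58 ± 0.95 for Tagln (edgeR adjusted p from 3.52e-12 to 0.0246). The calls rested on the v2 libraries. Within v1 the ratio of E17.5 to E12.5 was instead larger in mural-like cells for every member with a ratio in both classes. It was 5.47 against 3.95 for Acta2, 9.54 against 3.10 for Tagln and 3.92 against 3.35 for Actg2. For Myl9 it was 6.59 against 1.73 and for Des 1.48 against 1.01. Without E12.5 v2 only Lmod1 was called, and without E17.5 v2 none of the 8 was, with Acta2 at −0.82, and Cnn1, Lmod1, Myl9 and Des turned to 0.30, 1.79, 0.82 and 0.63. None was called by DESeq2 or without library as a block either. The estimates of the 6 kept their sign there, from −3.20 (Tagln) to −5.29 (Myh11) with DESeq2. Without the block they ran from −3.59 (Tagln) to −7.2 (Cnn1). Of the other contractile genes, 12 of 39 were higher and 1 lower at E17.5 in other mesenchyme, led by Mustn1 at 6.52 ± 1.00 and Mylk at 5.84 ± 1.34, and 8 of 40 had a smaller change in mural-like cells.

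The E17.5 v2 library held few other mesenchymal cells after the CD140a depletion, 163 against 1105 in E17.5 v1, and 140 of them came from 2 clusters with high contractile genes. They were counted as other mesenchyme because their mural scores were under the limit, and whether they are mesenchyme, visceral muscle or vessel wall could not be settled from the markers used. The first, of 20 cells, had Sh3bgr, Tnnt2 and Ramp1 among its leading genes. It held Acta2 at 17850 CPM, Actg2 at 8977, Myl9 at 9064, Cnn1 at 3017, Des at 2874 and Myh11 at 1916, and all 8 members other than Myocd were read in all 20 cells. Myocd was read in 8 of the 20, at 53.0 CPM. Notch3 and Pdgfrb, which mark mural cells, were each at 3.31 CPM there, and Rgs5 was at 89.5 CPM.

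The second cluster, of 120 cells, was led by Mfap4, Cthrc1, Dpt, Postn, Lum and Ccl11, matrix and fibroblast genes. Its Acta2 was 5490 CPM, Tagln 1963, Actg2 1540, Cnn1 90.3 and Des 195. Notch3 was at 112 CPM and Pdgfrb at 112. The 20-cell cluster, 12.3% of the cells of other mesenchyme in this library, held 87.9% of the Cnn1 UMIs and 78.2% of the Myh11 UMIs. It also held 29.2% of the Tagln and 34.1% of the Lmod1 UMIs, more than its share of cells. The 120-cell cluster held 65.0% of the Tagln and 65.9% of the Lmod1, less than its 73.6% of the cells.

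The members were also uneven within the 237 mural-like cells of the same library. A cluster of 16 cells led by Rergl, Map3k7cl, Gja4 and Kcna5, with Notch3 at 302 CPM, had Acta2 at 12520 CPM, Tagln at 4225, Myh11 at 538, Lmod1 at 479 and Myocd at 44.2. It held 96.4% of the mural-like Cnn1 UMIs, 67.0% of Myh11, 61.9% of Lmod1 and all 6 UMIs of Myocd. The 169-cell cluster led by Ebf1, Cox4i2, Rgs5 and Higd1b, markers of pericytes, had Acta2 at 1528 CPM, Actg2 at 60.9, Myh11 at 12.8 and 0 UMIs of Cnn1. Des was at 302 and 269 CPM in these clusters, with overlapping 95% intervals of 217 to 410 and 244 to 296. The share of such clusters in a mural-like sum therefore moves the sum, and it was not separable from level per cell between libraries.

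**Figure D4:**
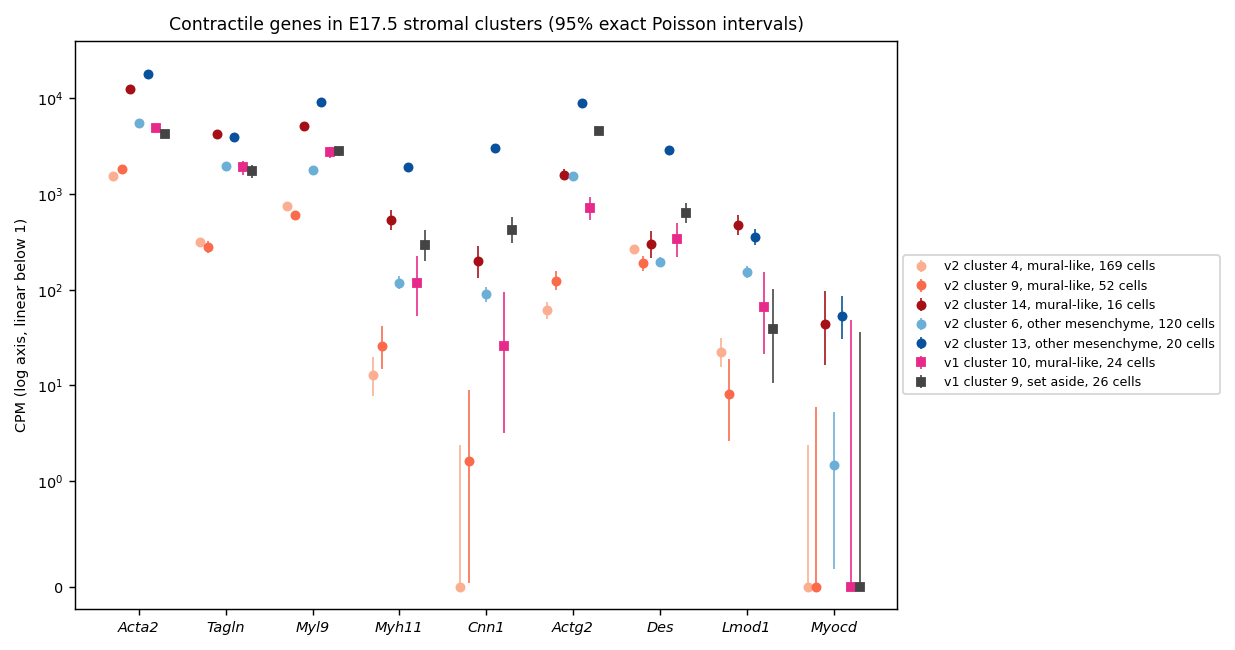
CPM of the 9 genes (log axis, linear below 1) is plotted for 7 stromal clusters at E17.5, circles for v2 and squares for v1, with 95% exact Poisson intervals. The 20-cell cluster of other mesenchyme (dark blue) and the 16-cell mural-like cluster (dark red) stand highest for Myh11, Cnn1 and Myocd among the v2 clusters, with Cnn1 at 3017 and 199 CPM and Des at 2874 and 302.

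A counterpart in E17.5 v1 was small. One cluster of 26 cells, led by haemoglobin genes and kept out of every class, held Actg2 at 4516 CPM and Cnn1 at 423, and these came from 2 cells, which carried all 459 Actg2 and all 43 Cnn1 UMIs. When that cluster was counted as other mesenchyme, a choice made after seeing the data, 7 of 8 members were called higher from E12.5 to E17.5 and the difference between classes kept 6 calls. Across the alternatives that kept every library, 1038 to 2540 of all genes were called in the first comparison and 2 to 286 in the second.

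The genes whose pattern was most like the mean of the 9 over all 32 class-by-library sums were Cald1 (Pearson r = 0.913), Map3k7cl (0.904), Notch3 (0.892), Ccl11 (0.882) and Tpm2 (0.873), followed by Nexn, Heyl, Spon1, Pde3a and Ndufa4l2 (0.845 to 0.859). The comparison covered 6056 genes, and the sums share libraries and depth. Cald1 (caldesmon), Tpm2 and Nexn (nexilin) bind actin filaments, while Notch3, Heyl and Ndufa4l2 were among the markers that named mural-like cells. Of the members themselves, Myl9 followed the mean of the other 8 most closely (r = 0.958), and Des (0.763) and Myocd (0.606) least.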

How the data were processed

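The authors deposited UMI counts per gene and barcode, made with Cell Ranger versions 1.1 and 2.1 against mm10 per the submitters' processing notes, and the Fev-Cre library was used as aligned with its reporter sequences. The 2 wells of E17.5 v2 were summed. Barcodes with 200 or more genes were kept. Each library was clustered alone (2000 variable genes, 20 components, 20 neighbours, Leiden resolution 1). The 9 genes and 41 other contractile genes were held out of the variable genes. A cell carried a compartment when its marker UMIs, at least 2, made up 30% or more of the median share among that compartment's own cells. Doublets carried 2 exclusive compartments (0.390% to 6.63% of cells) and were set aside.

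Stromal cells were reclustered. Clusters were named mural-like or mesothelial-like by marker scores of at least 0.5 and 0.4 with 3 or more markers, and 14 clusters with 3 leading genes, or a score of 0.25, of another compartment were left out. These limits, and acinar and skeletal muscle lists added to that check, were set after the clusters were seen. Stress genes were among the leading genes of mesothelial-like clusters in E14.5 v2 (Atf3) and E17.5 v2 (Atf3, Jun), and of other mesenchymal clusters in both E14.5 v1 libraries (Fosb, Dusp1), E14.5 Fev-Cre (Nr4a1) and E17.5 v1 (Nr4a1, Fosb, Junb).

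UMIs of classes with at least 20 cells were summed per library and tested with edgeR 4.0.16 (quasi-likelihood, TMM, filterByExpr), with SE taken as the absolute log2 fold change over the square root of F. On simulated counts, tried for 3 of the 8 comparisons, the fits returned the direction of most changed genes but called few of them in the difference between classes. DESeq2 1.42.0 was an alternative, and others are listed in the closing section. Classes of 1 library come from the same suspension, so library was a block in class comparisons. Shares of cells were taken after thinning each cell to 2000 UMIs, leaving out shallower cells, which were 71.4% of mural-like cells in E12.5 v1 and at most 29.2% in the others. Intervals are 95% exact Poisson intervals and, like the limit of 3 counts, cover counting error only.

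Besides the 9 genes, the text names up to 5 other contractile genes called per comparison, regulators called in mural-like stage comparisons, and the 10 genes most correlated with the members' mean log2(CPM + 1) among genes with a mean of at least 20 CPM. Genes named from clusters were chosen after their values were seen. Members and lists were chosen with earlier results of these data known. Each stage has 1 pool per kit apart from E14.5, so p-values rest on few pools.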

Additional observations from a re-analysis of the deposited data

Results flagged for a closer look

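Of 30 groups of 4 E14.5 libraries examined for a single value far from the others, 4 stood out, and chance gives about 1 in 20. Des in mural-like cells was 129 CPM in E14.5 v2, beside 186 to 197 in the other 3. Cnn1 in mesothelial-like cells was 0.178 CPM in E14.5 Fev-Cre (1 UMI), beside 2.28 to 2.68. Actg2 in mesothelial-like cells was 11.2 CPM in E14.5 v1 batch 1 (9 UMIs), beside 0.178 to 2.03. Des in endothelial-like cells was 12.7 CPM in E14.5 Fev-Cre (3 UMIs) and 0 in the others, so that any UMI there would have stood out and the value says little.

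The change from E12.5 to E17.5 differed between mural-like cells and other mesenchyme by the interaction test for Acta2 (−3.96), Tagln (−3.58), Myh11 (−6.87), Cnn1 (−9.79), Actg2 (−5.77) and Lmod1 (−5.79, all edgeR log2 differences). None was called without E17.5 v2, whose other mesenchyme consisted mainly of 2 contractile clusters. Within v1 the ratio of E17.5 to E12.5 was larger in mural-like cells for Acta2 (5.47 against 3.95), Tagln (9.54 against 3.10) and Actg2 (3.92 against 3.35). These mural-like ratios rest on 35 and 24 cells, with 12 UMIs for Actg2 at E12.5, and the contrast within v1 was not tested.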

How the results depend on the processing

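Of 984 refits of a member under an alternative, 851 kept direction and side of the threshold, 70 lost a call, 37 gained one and 26 reversed. Most reversals came with 1 library left out. For E14.5 against E12.5 in mural-like cells the log2 estimates then ran from −0.89 to 1.15 for Acta2, −1.27 to 1.12 for Tagln, −1.03 to 1.54 for Myl9, −1.96 to 0.53 for Actg2 and −0.35 to 0.14 for Des. For E17.5 against E12.5 they ran from −0.51 to 1.99 for Actg2, −1.39 to 0.57 for Cnn1 and −0.20 to 0.93 for Lmod1, and in other mesenchyme from −0.093 to 8.91 for Cnn1. The difference between classes ran from −10.36 to 0.30 for Cnn1, −6.81 to 1.79 for Lmod1, −4.13 to 0.82 for Myl9 and −1.38 to 0.63 for Des, each highest without E17.5 v2. With contractile genes among the variable genes Acta2 was 0.16 for E14.5 against E12.5, and Actg2 and Lmod1 were −0.24 and −0.082 for E17.5 against E12.5, where Cnn1 was 0.10 at Leiden resolution 2. Of 72 shares of cells under other thinning, 52 moved by less than 1 SD between libraries, and all 36 levels did when cells were averaged.

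Numbers of members called were as follows. Mural-like against other mesenchyme went from 5 to 3 with at least 500 genes per cell and to 3 with contractile genes among the variable genes, and ranged from 3 to 5 when 1 library was left out (3 without E14.5 v1 batch 2 or E17.5 v1). Against endothelial-like cells 8 were called with no filter on counts, 5 throughout with 1 library left out. Against mesothelial-like cells leaving out 1 library gave 6 to 7.

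In mural-like cells, E17.5 against E12.5 went from 0 to 4 at Leiden resolution 2 and ranged from 0 to 1 with 1 library left out. E17.5 against E14.5 went from 1 to 2 with RLE size factors, DESeq2, no filter or doublets kept, to 6 at Leiden resolution 2, to 0 with contractile genes among the variable genes or no kit term, and ranged from 0 to 4 with 1 library left out.

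In other mesenchyme 8 were called with no filter, and 0 (without E12.5 v2) to 9 (without E17.5 v1) with 1 library left out. The difference between classes went from 6 called lower to 0 with DESeq2, 3 with at least 500 genes per cell and 1 at Leiden resolution 2, and ranged from 0 (without E17.5 v2) to 8 with 1 library left out. Replacing the replicate block of library by stage and kit terms gave 0. The 6 log2 differences kept their sign there, from −3.59 to −7.2, and with DESeq2, from −3.20 to −5.29. The causes were not tested.

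Numbers of all genes called ranged widely over the alternatives. They were 546 against other mesenchyme (428 to 964), 1237 against mesothelial-like cells (1046 to 3048) and 679 against endothelial-like cells (665 to 2517, and 624 to 796 with 1 library left out). In mural-like cells they were 147 for E17.5 against E12.5 (35 to 361), 12 for E14.5 against E12.5 (1 to 51) and 43 for E17.5 against E14.5 (5 to 172). In other mesenchyme they were 1695 (1038 to 2540, and 355 to 1810 with 1 library left out), and for the difference between classes 236 (2 to 286, and 61 to 437).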

Other observations

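A cluster outside every class also held members. In E14.5 v2, 24 cells led by the skeletal muscle factors Myog (6875 CPM) and Myod1 (659 CPM) had Acta2 at 2119 CPM in all 24 cells and Des at 314. Their Actg2 was 111 CPM, Myl9 92.4 and Tagln 55.5, and Myh11, Cnn1, Lmod1 and Myocd had 0 UMIs, each of which allows up to 22.7 CPM by the exact Poisson interval.

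Of 31 regulators of smooth muscle tested in mural-like cells against other mesenchyme, 8 were called higher and 4 lower, beside 2.46% and 3.48% of all genes, with a list median of 0.14. Mef2c was 2.88 ± 0.24 log2 higher, Foxs1 2.67 ± 0.42 and the Notch target Hey2 2.03 ± 0.40. Among the genes that were lower, Klf4, Gata6 and Tgfbr2 had log2 fold changes of −2.10, −1.75 and −1.65. Adjusted p from edgeR was at most 0.0162 for all 12.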
